A study of Homo sapiens with 4 samples.

Results

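The genes described here are ANO1, a calcium-activated chloride channel, and 8 other chloride channel or anoctamin genes, measured in NUGC3, a human line grown from a stomach tumour. The 9 genes were taken by symbol from the 53777 Ensembl rows of an RNA sequencing table, and all 9 were found there. ANO1 was picked because its level was much higher in the knockdown libraries, so its own difference is given as a description with no test. The other 8 are ANO6, ANO9, ANO10, CFTR, CLCN3, CLIC1, CLCA2 and CLCA4. There were 4 libraries, 2 from NUGC3 cells with a MYC knockdown and 2 from wild-type NUGC3 cells. The comparison asks which RNAs differ in these cells after knockdown of MYC, a transcription factor of cell growth. The sources used here do not give the method of the knockdown. Nothing in them says that replicates are separate cultures, so the p-values reflect the spread between samples, and that spread may be technical.

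Chloride leaves many epithelial cells through channels in the apical membrane, and water follows. ANO1, also called TMEM16A, opens when cytosolic calcium is high, and CFTR, the channel mutated in cystic fibrosis, opens when it is phosphorylated by protein kinase A. Anoctamins divide into chloride channels, of which ANO1 is the best known, and phospholipid scramblases such as ANO6. CLCN3 encodes an exchanger of chloride for protons in endosomes. CLIC1 belongs to a family of soluble proteins that can also associate with membranes, and CLCA proteins are thought to act on channels and not to be channels themselves. ANO1 lies in 11q13, a chromosome band that is amplified in several carcinomas, and it is also a marker of the interstitial cells of Cajal in the gut wall.

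In the annotation of GENCODE release 29 on GRCh38, ANO1 (ENSG00000131620) runs from 70078302 to 70189528 on the plus strand of chromosome 11 and has 10 annotated transcripts. RefSeq promoter windows on GRCh38.p14, the 250 bases before an annotated start, were at hand for 8 of the 9 genes, 10 windows in all. ANO9 had none. The windows of ANO1, CLIC1 and CLCA2 are shown because these genes are the one with the large difference, the most abundant and a nearly silent one. Capitals mark letter matches to the GC box GGGCGG and the TATA box TATAAA on either strand, at any position in the window. Boxes counted below are such matches.
ANO1, plus strand, chr11:69985657-69985906: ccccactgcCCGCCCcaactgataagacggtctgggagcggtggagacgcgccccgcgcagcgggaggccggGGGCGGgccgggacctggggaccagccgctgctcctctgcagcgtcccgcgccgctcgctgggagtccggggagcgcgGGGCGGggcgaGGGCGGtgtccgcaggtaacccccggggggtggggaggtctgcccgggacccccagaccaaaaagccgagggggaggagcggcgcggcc
CLIC1, minus strand, chr6:31736531-31736780: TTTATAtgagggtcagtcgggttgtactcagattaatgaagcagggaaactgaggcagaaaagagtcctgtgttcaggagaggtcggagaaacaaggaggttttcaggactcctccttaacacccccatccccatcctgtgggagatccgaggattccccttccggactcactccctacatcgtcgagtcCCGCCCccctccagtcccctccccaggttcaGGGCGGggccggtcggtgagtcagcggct
CLCA2, plus strand, chr1:86423921-86424170: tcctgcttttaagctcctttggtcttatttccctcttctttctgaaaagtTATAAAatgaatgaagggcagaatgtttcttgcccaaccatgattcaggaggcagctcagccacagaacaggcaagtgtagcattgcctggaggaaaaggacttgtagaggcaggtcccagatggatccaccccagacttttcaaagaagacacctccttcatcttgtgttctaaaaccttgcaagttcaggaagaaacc
The ANO1 window held 4 GC boxes and 30 CG dinucleotides, against 2 GC boxes and 11 CG dinucleotides for CLIC1 and 0 of either for CLCA2. Over all 35116 windows the median was 11 CG dinucleotides, 12.4% of windows had at least as many as ANO1, 42.6% held a GC box and 10.7% a TATA box. The E-box CACGTG, the sequence that MYC and MAX are known to bind, was in 0 of the 10 windows and in 6.34% of all windows. The start behind the ANO1 window lies 92.4 kb before the nearest ANO1 start of GENCODE release 29, and which start NUGC3 cells use was not measured.

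Values are taken to be FPKM, fragments scaled by transcript length and by the library's total. The sources do not name the unit, so comparing levels between genes rests on this inference. The deposited columns summed to between 674328 and 739335. FPKM does not keep the depth. Steps between low values put MYC knockdown replicates 1 and 2 at about 71.4% and 73.3%, and wild type replicate 2 at about 77.0%, of the depth of wild type replicate 1, but did not settle the number of fragments. The knockdown libraries lay further apart than the wild-type libraries, with a median absolute log2 difference of 0.20 within the knockdown pair and 0.08 within the wild-type pair. MYC (ENSG00000136997) stood at 65.0 and 75.8 FPKM in MYC knockdown replicates 1 and 2, against 82.9 and 82.0 FPKM in wild type replicates 1 and 2. Both knockdown values were below both wild-type values, but the log2 difference was −0.23 and missed the threshold (limma adjusted p = 0.237). Epithelial markers were high in all libraries, with EPCAM between 181 and 197 FPKM in the knockdown and at 210 and 209 FPKM in wild type. None of the 7 markers of stomach mucous epithelium, such as MUC5AC and TFF1, reached 1 FPKM in any library, so the stomach origin rests on the labels.

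ANO1 was the second most abundant of the 9 genes in every library and differed most between the groups. It stood at 69.7 and 112 FPKM in MYC knockdown replicates 1 and 2, against 28.2 and 30.0 FPKM in wild type replicates 1 and 2. The groups did not overlap, and MYC knockdown replicate 2 was the highest. The means were 91.0 ± 30.2 FPKM in the knockdown and 29.1 ± 1.28 FPKM in wild type (SD, n = 2 each), a ratio of 3.13. On the log2(FPKM + 1) scale the difference was 1.57, and it was 1.23 for replicate 1 alone and 1.91 for replicate 2 alone against the wild-type mean. Of the 12953 genes that passed the filter on low values (1 FPKM or more in 2 or more libraries), 36 had a larger log2 difference upward. ANO1 lay above 89.0% and 94.0% of these genes in the knockdown libraries and above 72.5% and 74.0% in the wild-type libraries. In bulk RNA, a change in every cell and a change in the share of cells that use the gene cannot be told apart. A minus-strand transcript, ANO1-AS1, overlaps the end of ANO1, and it was listed at 0 in all 4 libraries, as was ANO1-AS2 just before ANO1.

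**Figure D1:**
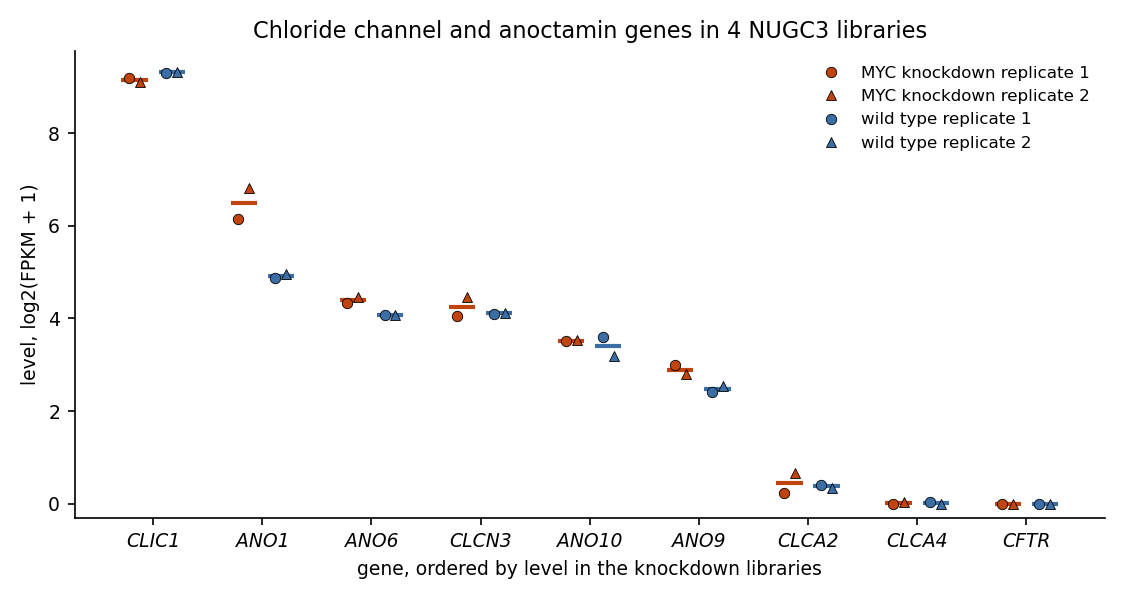
Level of each gene on the log2(FPKM + 1) scale in each library, with knockdown points left of wild-type points and short lines at group means (n = 2). ANO1 has the widest gap between groups, and CFTR, CLCA4 and CLCA2 lie near 0.

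The other anoctamins differed far less. ANO6 (ENSG00000177119), a calcium-activated phospholipid scramblase, stood at 19.0 and 21.0 FPKM in MYC knockdown replicates 1 and 2, against 15.9 and 16.0 FPKM in wild type replicates 1 and 2. Both knockdown values were higher, and the wild-type pair was nearly equal. The log2 difference was 0.31 (95% interval 0.06 to 0.57, unadjusted), which did not pass the test over all genes (limma adjusted p = 0.142). ANO9 (ENSG00000185101) stood at 7.03 and 5.93 FPKM in MYC knockdown replicates 1 and 2, against 4.36 and 4.83 FPKM in wild type replicates 1 and 2. Its groups did not overlap either, and it was the lowest of the 6 genes past the filter. Its log2 difference was 0.42 (95% interval 0.05 to 0.78, unadjusted; limma adjusted p = 0.158). ANO10 (ENSG00000160746), an anoctamin of the endoplasmic reticulum mutated in a recessive ataxia, stood at 10.4 and 10.6 FPKM in MYC knockdown replicates 1 and 2. In wild type replicates 1 and 2 it stood at 11.2 and 8.17 FPKM, so the knockdown values lay between the wild-type values. The log2 difference was 0.12 (95% interval −0.32 to 0.56; limma adjusted p = 0.686), and −0.082 without wild type replicate 2.

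Because ANO1 differed more than its relatives, the makeup of the anoctamin RNA differed too. The 10 anoctamin genes summed to 110 and 154 FPKM in MYC knockdown replicates 1 and 2, against 63.3 and 63.2 FPKM in wild type replicates 1 and 2. ANO1 made up 63.2% and 72.9% of that sum in the knockdown libraries, against 44.5% and 47.5% in the wild-type libraries, or 68.0% ± 6.91 against 46.0% ± 2.09 (SD, n = 2 each). The ratio of ANO1 to ANO6 within a library was 3.66 and 5.34 in the knockdown and 1.78 and 1.88 in wild type. Without ANO1, the other anoctamins summed to 40.7 and 41.7 FPKM in the knockdown and 35.1 and 33.2 FPKM in wild type. These shares contain the value by which ANO1 was picked, so they describe the libraries and were not tested. ANO8 stood at 3.51 and 3.74 FPKM in the knockdown and at 3.16 and 3.42 FPKM in wild type, while ANO2, ANO3, ANO4, ANO5 and ANO7 did not pass the filter, with a highest value of 0.72 FPKM for ANO7.

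**Figure D2:**
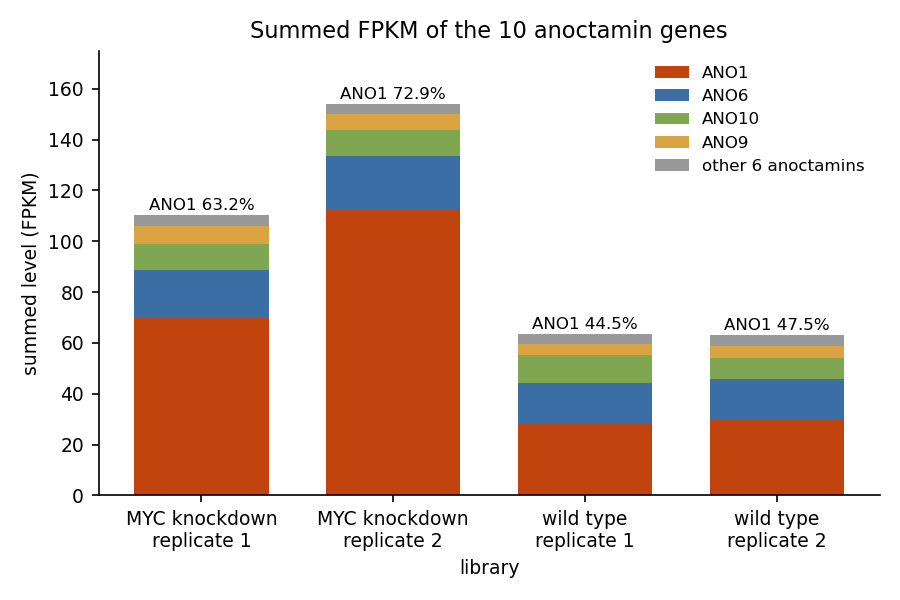
Summed FPKM of the 10 anoctamin genes in each library, split by gene, with the ANO1 share printed above each bar. The knockdown bars reach 110 and 154 FPKM and the wild-type bars 63.3 and 63.2 FPKM, and most of the gap is ANO1.

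CLIC1 was by far the most abundant of the 9 genes and was slightly lower in the knockdown. CLIC1 (ENSG00000213719) stood at 583 and 551 FPKM in MYC knockdown replicates 1 and 2, against 630 and 633 FPKM in wild type replicates 1 and 2. The groups did not overlap, but the log2 difference of −0.16 (95% interval −0.34 to 0.03) did not pass (limma adjusted p = 0.243). With quantile normalization the difference was −0.02 and the groups overlapped. CLCN3 (ENSG00000109572) stood at 15.5 and 20.9 FPKM in MYC knockdown replicates 1 and 2, against 16.1 and 16.4 FPKM in wild type replicates 1 and 2. MYC knockdown replicate 2 was higher than the other libraries and replicate 1 was the lowest, so the groups overlapped. The log2 difference was 0.14 (95% interval −0.28 to 0.56; limma adjusted p = 0.623), and −0.064 without MYC knockdown replicate 2.

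CFTR and the CLCA genes were at or near 0. CFTR (ENSG00000001626) was listed at 0 in all 4 libraries. CLCA4 (ENSG00000016602) was listed at 0 and 0.03 FPKM in MYC knockdown replicates 1 and 2, against 0.03 and 0 FPKM in wild type replicates 1 and 2. CLCA2 (ENSG00000137975) stood at 0.17 and 0.58 FPKM in MYC knockdown replicates 1 and 2, against 0.33 and 0.27 FPKM in wild type replicates 1 and 2, with knockdown values on both sides of the wild-type pair. These 3 genes did not pass the filter on low values and were not tested. In each wild-type library the order of the other 6 was CLIC1, ANO1, CLCN3, ANO6, ANO10 and ANO9, and in each knockdown library ANO6 stood above CLCN3. CLCN3 and ANO6 are neighbours in that order whose ranges overlapped in the knockdown, and the ranges of the other neighbours did not overlap within either group.

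Of the 5 genes other than ANO1 that passed the filter, limma with Benjamini-Hochberg adjustment called 0 at 0.05 and 0 at 0.10, and 2 had an unadjusted p under 0.05. Over all 12953 genes it called 0% at 0.05 and 10.4% at 0.10, and 25.9% had an unadjusted p under 0.05. The groups did not overlap for 3 of these 5 genes, 2 higher and 1 lower in the knockdown. Over all genes that share was 58.6%, with 33.4% higher and 25.2% lower, so the count is near the background. The smallest two-sided p that an exact permutation test of 2 against 2 libraries allows is 0.333. With a knockdown library left out, the lone knockdown library is assumed to vary like the close wild-type pair. Calls of these genes from such fits are therefore not given. Without MYC knockdown replicate 1 the log2 differences of ANO6, ANO9, ANO10, CLCN3 and CLIC1 were 0.38, 0.31, 0.14, 0.34 and −0.20. Without MYC knockdown replicate 2 they were 0.24, 0.52, 0.11, −0.064 and −0.12.

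The wider chloride channel families held genes that stood higher and genes that stood lower. Beside CFTR, 43 genes of the anoctamin, CLC, CLIC, CLCA, bestrophin and volume or acid activated groups were listed, and all were in the table. Of these, 23 passed the filter and 20 did not, 7 of them at 0 in all libraries. Among the 22 that passed other than ANO1, 9 were higher and 6 lower without overlap and 7 overlapped, near the shares of 33.4% higher and 25.2% lower over all genes tested. Their median log2 difference was 0.10, against 0.04 over all genes tested, and it lay between 0.03 and 0.17 under 3 other scalings. Over all genes tested the median lay between −0.0054 and 0.12 under these scalings. Limma called 0 of the 22 at 0.05, 9 had an unadjusted p under 0.05, and 1, which was higher, passed at 0.10. Over all genes tested, 25.9% had an unadjusted p under 0.05, 5.5% passed at 0.10 as higher and 4.91% did as lower.

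That gene was CLCN7, which encodes the chloride-proton exchanger of lysosomes. It stood at 27.0 and 23.3 FPKM in MYC knockdown replicates 1 and 2, against 15.4 and 12.6 FPKM in wild type replicates 1 and 2, a log2 difference of 0.81 ± 0.14 (standard error; limma adjusted p = 0.0665). Both knockdown values were well above both wild-type values. Its log2 difference was 0.70 without MYC knockdown replicate 1 and 0.91 without MYC knockdown replicate 2. Its partner subunit OSTM1 stood at 16.0 and 28.0 FPKM in the knockdown and at 14.9 and 13.3 FPKM in wild type, with the gap resting on replicate 2 (limma adjusted p = 0.277). CLCN4, an exchanger of endosomes, had a log2 difference of 0.30 (limma adjusted p = 0.205). Over the 7 CLC genes that passed the filter, 4 were higher and 1 lower without overlap, where all genes tested gave 33.4% higher and 25.2% lower, with a median of 0.15.

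The CLIC genes pointed in different directions. CLIC3 stood at 2.16 and 3.21 FPKM in the knockdown and at 1.05 and 1.40 FPKM in wild type, and CLIC4 at 23.3 and 30.0 FPKM in the knockdown and at 37.1 and 38.4 FPKM in wild type. The log2 differences were 0.72 and −0.50 (limma adjusted p = 0.139 and 0.122), and neither passed. BEST1, a calcium-activated chloride channel best known from the retinal pigment epithelium, was the one bestrophin past the filter. It stood at 3.35 and 4.36 FPKM in the knockdown and at 2.38 and 2.29 FPKM in wild type (limma adjusted p = 0.144).

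The channels that open on cell swelling or in acid stood lower in the knockdown or overlapped, and none passed the test. LRRC8D and LRRC8B, subunits of the volume-regulated anion channel, had log2 differences of −0.43 and −0.33 (limma adjusted p = 0.111 and 0.167). TMEM206, the proton-activated chloride channel, stood at 12.3 and 12.7 FPKM in the knockdown and at 15.3 and 16.1 FPKM in wild type (limma adjusted p = 0.138). LRRC8A, the subunit that every such volume-regulated channel needs, stood at 24.7 and 32.3 FPKM in the knockdown and at 27.0 and 27.8 FPKM in wild type, so its groups overlapped. Of the 7 genes of this group that passed the filter, 3 were lower and 0 higher without overlap, against 25.2% lower and 33.4% higher over all genes, with a median of −0.14. With equal column sums the median was −0.06 and 1 gene was higher without overlap. The median over all genes tested was 0.04, and 0.12 with equal column sums.

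**Figure D3:**
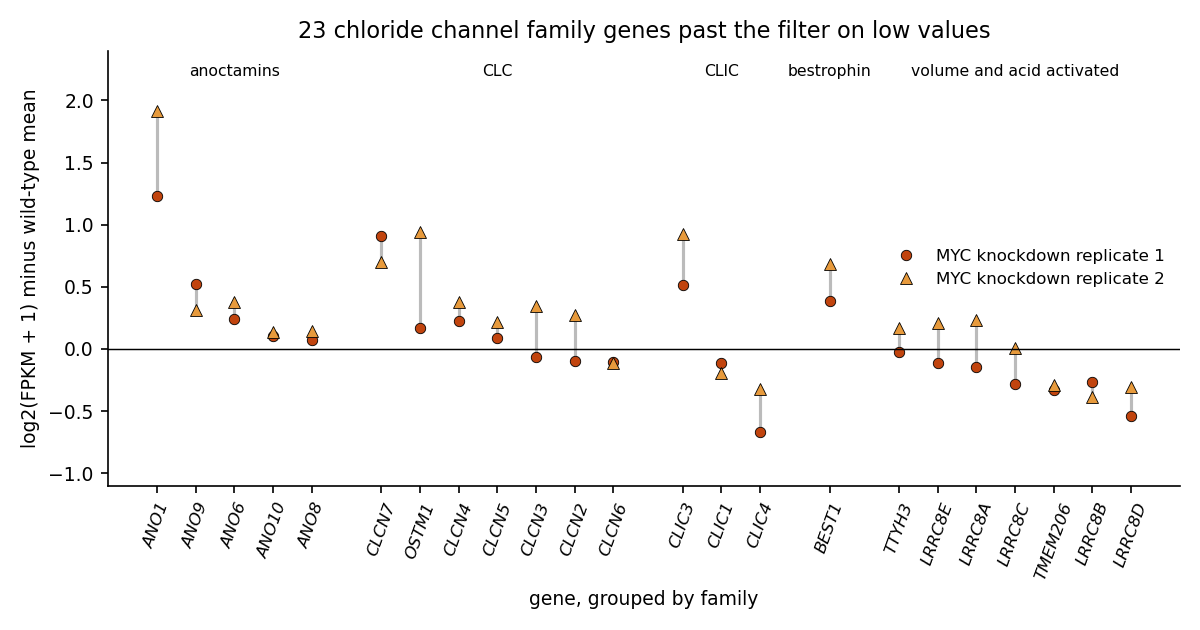
Difference of each knockdown library from the wild-type mean on the log2(FPKM + 1) scale for 23 chloride channel genes past the filter, grouped by family, with a line joining the replicates. ANO1 stands highest at 1.23 and 1.91. Next come CLCN7 in replicate 1 (0.91), and OSTM1 (0.94) and CLIC3 (0.92) in replicate 2. In the volume and acid activated group LRRC8B, LRRC8D and TMEM206 lie below 0 in both replicates. The others of that group lie below 0 in replicate 1 and above 0 in replicate 2.

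Genes that load, exchange or recycle ions beside these channels stood on both sides of 0. In SLC26 and SLC4 anion transport, SLC4A7, a sodium bicarbonate cotransporter, stood at 9.79 and 12.1 FPKM in the knockdown and at 18.1 and 18.5 FPKM in wild type, a log2 difference of −0.70 (limma adjusted p = 0.0712). SLC26A11 and SLC4A3 had log2 differences of 0.50 and 0.45 (limma adjusted p = 0.131 and 0.178). Of the 8 genes of that list past the filter, 5 were higher and 1 lower without overlap (33.4% and 25.2% over all genes), with a median of 0.26 against 0.04 over all genes. SLC12A2, the cotransporter that loads chloride across the basolateral membrane, stood at 9.84 and 12.5 FPKM in the knockdown and at 9.49 and 9.04 FPKM in wild type. SLC12A4, which exports potassium with chloride, stood at 12.3 and 11.9 FPKM in the knockdown and at 8.97 and 8.84 FPKM in wild type (limma adjusted p = 0.0996). FXYD3, a regulator of the sodium pump, stood at 57.6 and 128 FPKM in the knockdown and at 54.2 and 50.4 FPKM in wild type, so replicate 2 alone was far higher. The potassium channel KCNK5 had a log2 difference of −0.37 (limma adjusted p = 0.125). In this list of chloride loading and potassium recycling, 6 of 13 genes were higher and 3 lower without overlap, again beside 33.4% and 25.2%, with a median of 0.13.

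Although CFTR was listed at 0, 20 of 23 genes listed as its partners or regulators passed the filter. The other 3, PDZK1, PRKACB and PDE4D, had a highest value of 0.30 FPKM in any library. SLC9A3R1, the scaffold NHERF1 that binds the tail of CFTR, stood at 8.83 and 8 FPKM in the knockdown and at 14.5 and 14.8 FPKM in wild type. The log2 difference was −0.73 (limma adjusted p = 0.0569). STX8, a SNARE protein, stood at 23.96 and 21.96 FPKM in the knockdown and at 15.7 and 14.1 FPKM in wild type (limma adjusted p = 0.0687), and STX1A at 10.6 and 19.9 FPKM in the knockdown and at 9.87 and 9.89 FPKM in wild type (limma adjusted p = 0.328). Of the 20, 7 were higher and 6 lower without overlap, about the shares of 33.4% and 25.2% over all genes. Their median was −0.04, and 0.05 with equal column sums, where the median over all genes tested was 0.04 and 0.12. The epithelial sodium channel, which CFTR is known to influence, was represented by its alpha subunit SCNN1A, at 3.88 and 3.22 FPKM in the knockdown and 1.64 and 1.37 FPKM in wild type (limma adjusted p = 0.0764). SCNN1B was listed at 0 in all libraries. SGK1, a kinase that keeps this channel at the surface, stood at 217 and 222 FPKM in the knockdown and at 281 and 274 FPKM in wild type (limma adjusted p = 0.0794), and the protease PRSS8 at a log2 difference of −0.14 (limma adjusted p = 0.486). In that list of 5 genes past the filter, 2 were higher and 2 lower without overlap, where all genes gave 33.4% and 25.2%.

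ANO1 is opened by receptors that release calcium through phospholipase C. Of 26 genes of that list past the filter, 8 were higher and 5 lower without overlap and 13 overlapped, where over all genes 58.6% did not overlap. In 4 of the 26, P2RY6, PLCB1, ITPR1 and ANXA6, the mean of 1 group was under 1 FPKM, so they passed the filter through the other group. The counts and the median of this list include these 4 genes. The nucleotide receptor P2RY2 stood at 8.61 and 16.1 FPKM in the knockdown and at 11.7 and 10.5 FPKM in wild type, with knockdown values on both sides of the wild-type pair. The same held for F2RL1, a receptor cleaved by proteases, at 16.96 and 25.4 FPKM in the knockdown and at 20.5 and 21.0 FPKM in wild type. PLCB1, a phospholipase C, stood at 3.53 and 2.14 FPKM in the knockdown and at 0.94 and 0.88 FPKM in wild type, and its difference is given with no test because it passed the filter through its knockdown values. ANXA6, a calcium-binding annexin, stood at 1 and 0.98 FPKM in the knockdown and at 2.98 and 3.06 FPKM in wild type, and likewise passed mainly through its wild-type values, so no test is given. The calcium channel ORAI3 had a log2 difference of 0.79 (limma adjusted p = 0.103). The median over the list was 0.02, and −0.02 with median of ratios scaling, against 0.04 and −0.0041 over all genes tested. Over all these lists of ion transport and calcium signalling, the channel families included, limma called 0 of 94 genes other than ANO1 at 0.05. Of the 94, 28 had an unadjusted p under 0.05, where 25.9% of all genes did. The 94 include P2RY6, PLCB1, ITPR1 and ANXA6, and the 28 include the last 3 of these, so both counts are a description.

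The neighbours of ANO1 in 11q13 were set beside it because the band is amplified as a block in some tumours. On the log2(FPKM + 1) scale no neighbour past the filter stood as far above wild type as ANO1. ANO1 was picked for its large rise, so this follows largely from that choice. FGF3, under the filter, stood at 0.46 and 0.37 FPKM in the knockdown and at 0.11 and 0.14 FPKM in wild type. Its ratio of means was 3.32 at these low values, against 3.13 for ANO1. FADD, an adaptor of death receptors that starts 124.9 kb after the ANO1 start, stood at 46.1 and 40.9 FPKM in the knockdown and at 33.7 and 31.6 FPKM in wild type. PPFIA1, a gene of cell adhesions that follows it, stood at 96.0 and 95.9 FPKM in the knockdown and at 85.4 and 83.2 FPKM in wild type. CTTN, which encodes the actin-binding protein cortactin, stood at 349 and 335 FPKM in the knockdown and at 286 and 280 FPKM in wild type. In all of FADD, PPFIA1 and CTTN the groups did not overlap. CCND1, the G1 cyclin D1, whose start lies at −437.2 kb from the ANO1 start, stood at 559 and 839 FPKM in the knockdown and at 446 and 442 FPKM in wild type (log2 difference 0.62, limma adjusted p = 0.153). Its end overlaps ORAOV1 on the other strand, and the sources used here do not say whether the counting used strand. The scaffold gene SHANK2 stood at 9.92 and 22.96 FPKM in the knockdown and at 8.85 and 9.91 FPKM in wild type, so replicate 2 alone was well above wild type (limma adjusted p = 0.357). DHCR7, the enzyme of the last step of cholesterol synthesis, stood lower, at 33.5 and 24.2 FPKM in the knockdown and at 67.0 and 65.7 FPKM in wild type (log2 difference −1.19, limma adjusted p = 0.0569). Of the 10 neighbours past the filter, 6 were higher and 1 lower without overlap, against 33.4% and 25.2% over all genes, with a median of 0.23 against 0.04. DNA copies were not measured.

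**Figure D4:**
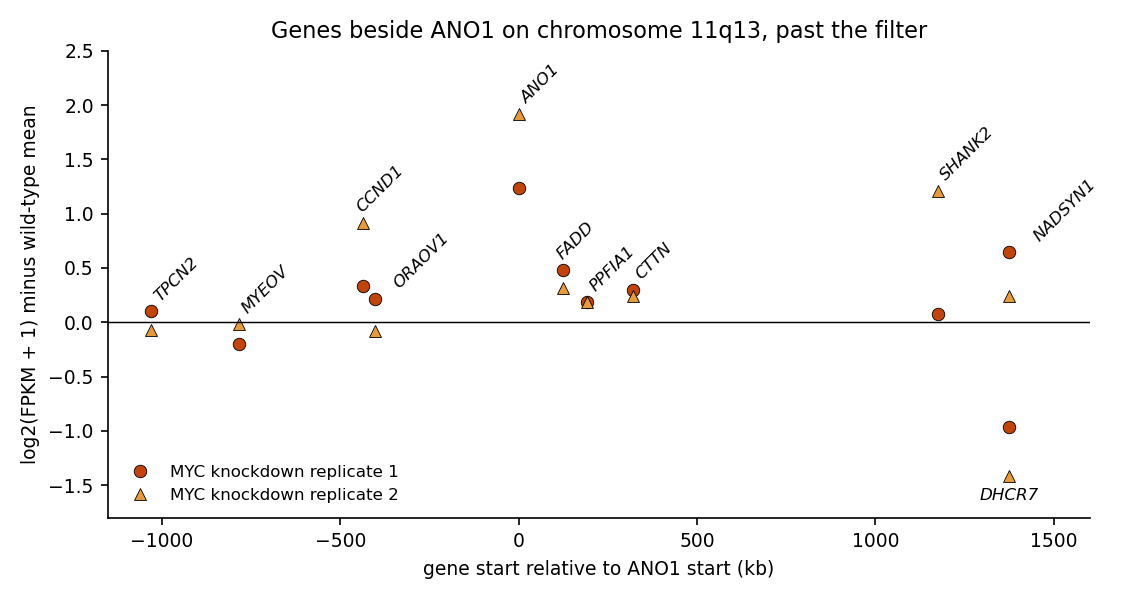
Difference of each knockdown library from the wild-type mean on the log2(FPKM + 1) scale against the distance of the gene's start from the ANO1 start in kb, for ANO1 and 10 neighbours past the filter. ANO1, picked for its large rise, stands above its neighbours in both libraries, and DHCR7 lies lowest.

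The 6 genes whose profile was most like that of ANO1 were TANC2, CD82, SMOC1, CTSD, LAMA3 and DNER. Likeness was the Euclidean distance over the 4 libraries of log2(FPKM + 1) minus the wild-type mean, among 11551 other protein-coding genes, and it ran from 0.11 for TANC2 to 0.23 for DNER. As they were picked for a profile like that of ANO1, their differences are a description. CTSD, the lysosomal protease cathepsin D, stood at 324 and 453 FPKM in the knockdown and at 132 and 136 FPKM in wild type. TANC2, a scaffold protein, stood at 6.77 and 10.98 FPKM in the knockdown and at 2.37 and 2.27 FPKM in wild type. In all 6 genes replicate 2 was the highest library, as for ANO1. With 4 libraries, many genes can share a profile.

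**Figure D5:**
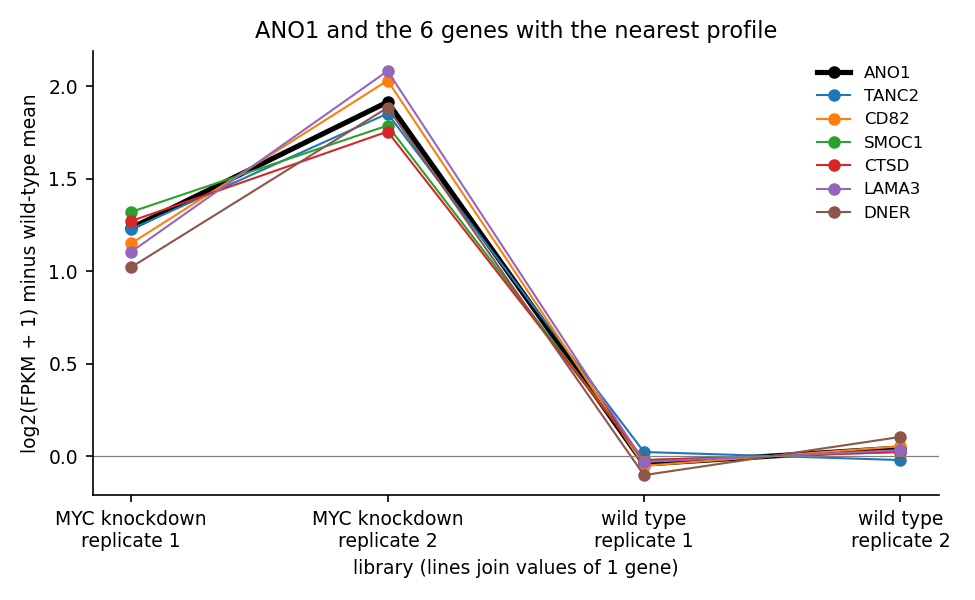
Level of ANO1 and the 6 genes with the nearest profile, as log2(FPKM + 1) minus each gene's wild-type mean, in the 4 libraries. The curves nearly coincide, with MYC knockdown replicate 2 highest for each gene.

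Markers of other cell types were set beside these values. The interstitial cells of Cajal use ANO1, and their defining marker KIT stood at 0.02 and 0.01 FPKM in the knockdown and at 0.01 and 0.03 FPKM in wild type. ETV1, the other gene of that list and a transcription factor of many tissues, stood at 3.78 and 6.23 FPKM in the knockdown and at 1.52 and 2.03 FPKM in wild type. Of the 6 fibroblast markers, COL1A1 alone passed the filter, at 8.12 and 2.98 FPKM in the knockdown and at 6.57 and 5.75 FPKM in wild type. COL1A2, COL3A1 and DCN were listed at 0 in all libraries, as was the leukocyte marker PTPRC. CD68, which is also a lysosomal protein of many cells, was the one immune marker past the filter, at 21.5 and 22.3 FPKM in the knockdown and at 12.4 and 17.1 FPKM in wild type. Of 3 endothelial markers in the table, none reached 1 FPKM. Among 5 markers of intestinal epithelium, CDX2 alone passed the filter. It stood at 1.78 and 1.36 FPKM in the knockdown and at 2.8 and 2.99 FPKM in wild type. The 6 epithelial markers summed to 5986 and 5422 FPKM in the knockdown and to 5125 and 5181 FPKM in wild type. Of the 6, 4 were higher and 1 lower without overlap, where all genes tested gave 33.4% and 25.2%. KRT19 stood at 1047 and 1153 FPKM in the knockdown and at 655 and 661 FPKM in wild type, while EPCAM stood lower and KRT18, at 2118 and 1824 FPKM in the knockdown and 2092 and 2131 FPKM in wild type, overlapped. The part of these markers in the ANO1 difference was not tested.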

How the data were processed

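RNA of 4 NUGC3 libraries was analysed from 1 deposited table, with groups and replicate numbers taken from the sample titles. Its values are FPKM per gene computed by the authors, with 2 decimals. The unit is an inference from the column sums, which differ. STAR and RSEM are named in the submitters' processing notes, with no version. The build and annotation behind the values are also not given in the sources. Of 344810 rows, the 53777 Ensembl rows were used. The 12953 genes with 1 FPKM or more in 2 or more libraries were fitted on log2(FPKM + 1) with limma 3.58.1 in R 4.3.3, using eBayes with a mean trend, and p-values were adjusted by Benjamini-Hochberg over all of them at a threshold of 0.05. A threshold of 0.10 is also given. This scale understates the change of low genes. The fit was tested on simulated data with the same spread in both groups, so that test does not cover the unequal spread of the 2 pairs here. ANO1 received no p-value. Differences are knockdown minus wild type.

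The genes and lists were chosen with earlier results of these data known. Named genes were MYC, the 9 genes, the 3 of each list with the largest absolute difference past the filter, and the 6 with the profile nearest to ANO1. Other list genes, such as ANO8, LRRC8A, SLC12A2, P2RY2, F2RL1, FGF3, FADD, PPFIA1, CTTN and the cell type markers, were chosen after their values were seen and are given as levels with no test. Promoter windows are from RefSeq on GRCh38.p14, with 8 of 9 genes matched by symbol, and positions from GENCODE release 29 matched by gene ID. Python 3.11.15, pandas 2.3.3 and matplotlib 3.10.9 were used. Alternatives were other filters, a pseudocount of 0.1, each library left out, a replicate block, 3 scalings, protein-coding rows, no trend and a fold of 1.5.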

Additional observations from a re-analysis of the deposited data

How the results depend on the processing

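ANO1 stayed higher in the knockdown under every alternative run for it, with a log2 difference between 1.23 and 1.91, the range set by leaving out each library. Its share of the anoctamin sum in the knockdown ran from 63.2% to 72.9%. Among the other genes, ANO10 ran from −0.082 without wild type replicate 2 to 0.32 without wild type replicate 1, and CLCN3 from −0.064 without MYC knockdown replicate 2 to 0.34 without MYC knockdown replicate 1, so both crossed 0. The 48 named genes in the fit include many picked for large differences. Among them are PLCB1 and ANXA6, which passed the filter through 1 group. Calls of the named genes with a knockdown library left out are not counted here. Direction also turned with the library left out for F2RL1 (−0.27 to 0.28), LRRC8A (−0.14 to 0.23), P2RY2 (−0.33 to 0.51), KRT18 (−0.21 to 0.0044) and COL1A1 (−0.84 to 0.35), and with scaling for F2RL1 (−0.041 with median of ratios, −0.039 with quantile normalization), LRRC8A (−0.0019 with median of ratios) and KRT18 (0.18 with quantile normalization). The number of genes called over the whole table moved more. At an adjusted p of 0.05 limma called 310 genes with a mean of at least 5 FPKM, 308 with median of ratios scaling and 385 among protein-coding rows, against 0 as reported. With a library left out it called between 0 and 3413 genes. At 0.10 the count of 1349 was 0 with no filter, 2230 with equal column sums, 838 without a trend, 723 with a replicate block, and between 0 and 5359 with a library left out. The split at 0.10 was 713 higher and 636 lower, 1643 and 587 with equal column sums, and 684 and 968 with median of ratios scaling. Without overlap it was 4324 higher and 3262 lower, 5788 and 2349 with equal column sums, and 3800 and 3971 with median of ratios scaling. With a library left out these counts ran from 5183 to 6709 higher and from 4007 to 5511 lower. A fold of at least 1.5 as well left 1177 higher and 699 lower among 12953 genes. Of the 9 genes, 6 passed the filter, and of these it left ANO1 alone. ANO1 was picked for its large rise, so its own place there was fixed in advance. Groups that do not overlap stay so when a library is left out, so the counts without overlap could only stay or rise there. The cause of the other shifts was not tested. The fit held 9593 genes with a mean of at least 5 FPKM, 11552 in protein-coding rows and 12953 with median of ratios scaling. Replicates are known here only by number. The deviations of same-numbered libraries had a correlation of −0.0059 across genes. Genes are not independent replicates, so this does not settle whether same-numbered libraries were handled together. The block could remove no call at 0.05, since 0 genes were called without it, and at 0.10 it gave 723 against 1349. FPKM keeps no depth, so no counting interval is given, and low values such as those of CLCA2 and CLCA4 are imprecise.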
